A study of Homo sapiens with 6 samples.

Results

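The genes described here are 10 of the NF-kappaB system: the subunits NFKB1, NFKB2 and RELB, the feedback inhibitors NFKBIA, TNFAIP3 and BIRC3, the TNF-induced genes TNFAIP2 and TNFAIP6, and the adhesion genes ICAM1 and VCAM1. They were named as a list, and every probe set that the platform annotation pairs with exactly 1 of them was taken, which gave 16 of 22215 probe sets for 9 of the 10 genes. BIRC3 was not analysed here. RNA came from A-498, an established line from a human renal cell carcinoma, kept for 120 h without zebularine in 3 cultures and with 1000 µM zebularine in 3 others. Zebularine is a cytidine analogue used as an inhibitor of DNA methyltransferases. Each of the replicate numbers 1, 2 and 3 names 1 untreated and 1 treated culture of the same experiment, and each culture was read on 1 Affymetrix array. Medium was renewed and the cells were split during the treatment, and the series text reports no obvious toxicity. All values come from this 1 line, so they describe no other line.

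NF-kappaB is a family of transcription factors held in the cytoplasm by inhibitory I-kappaB proteins. Signals such as TNF or interleukin-1 lead to the destruction of the inhibitor, and the freed dimers enter the nucleus and switch on their targets. Among these targets are genes for the factor's own subunits and inhibitors, which closes feedback loops, and genes for adhesion molecules and cytokines. Kidney tubule cells can make adhesion molecules of this kind when inflamed.

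VCAM1 and TNFAIP6 were lower on the treated array of all 3 replicate numbers, as were NFKB1, RELB and 1 probe set of TNFAIP2. No member passed the test without the replicate number in the model. With it as a block VCAM1 and TNFAIP6 alone passed, but not once replicate 1 was left out. The inhibitor genes NFKBIA and TNFAIP3 lay higher on average and passed in neither fit. VCAM1 had a mean signal of 1567 ± 517 in untreated and 788 ± 421 in treated cultures, and TNFAIP6 2134 ± 1818 and 738 ± 229 at 1 of its probe sets (SD, n = 3). The subunit genes differed by at most 0.35 on the log2 scale in either direction. In RNA from whole cultures, fewer cells that express a gene and less of its RNA per cell cannot be told apart.

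Of the 16 probe sets 15 were tested, since they reached a signal of 78.6 on at least 3 arrays; this level is the 40th percentile of all values. Differences are given as log2(signal + 16.34), treated minus untreated, with their standard error from limma, and a call needs a Benjamini-Hochberg adjusted p under 0.05 over all tested probe sets. Without the replicate number in the model 0 of the 15 were called, beside 0.62% of all 13545 tested probe sets, and 3 had an unadjusted p under 0.05, beside 12.6%. The replicate numbers paired the arrays. With the replicate number as a block 3 of the 15 were called, all lower, beside 2.32% of all tested probe sets called lower and 4.22% called in either direction. They belong to 2 genes, since both probe sets of TNFAIP6 are among them. The calls end without replicate 1 or without limma's mean-variance trend, as the values below show.

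Over the 15 probe sets 9 differences were negative and 6 positive, with a median of -0.32 against -0.01 over all tested probe sets. Lower in all 3 pairs were 6 (NFKB1, RELB, VCAM1, both of TNFAIP6 and 1 of TNFAIP2), beside 21.8% of all tested probe sets. Higher in all 3 pairs were 2 (NFKBIA and 1 of TNFAIP3), beside 20.9%. At 2 probe sets, both of TNFAIP6, all treated signals lay below all untreated ones, beside 8.88%, and at 0 they all lay above, beside 8.71%. The pairs were unlike each other: 13 of the 15 were lower in pair 1, 6 in pair 2 and 10 in pair 3, with median differences of -0.61, 0.12 and -0.39. Over all tested probe sets these medians were -0.02, -0.02 and 0.02.

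**Figure D1:**
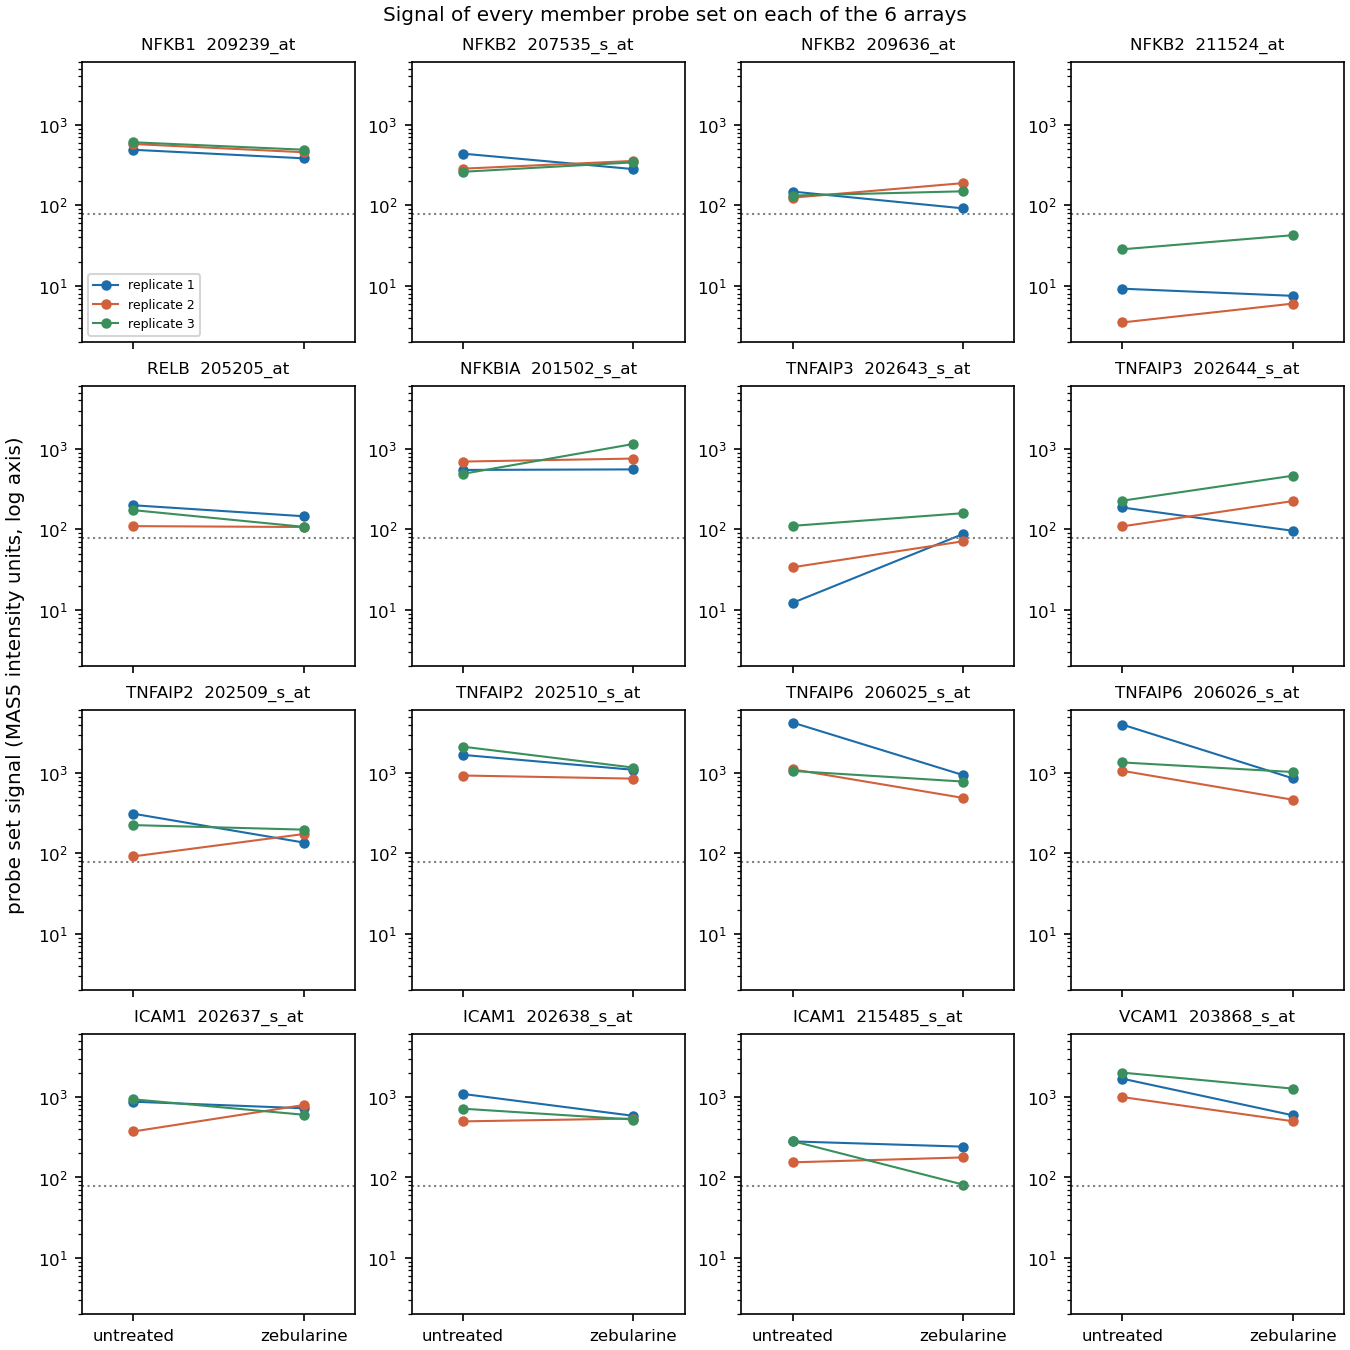
Signal in MAS5 intensity units on a log axis for each of the 16 member probe sets; each line joins the untreated and the zebularine array of 1 replicate number, and the dotted line is the filter level of 78.6. All 3 lines fall for VCAM1 and for both probe sets of TNFAIP6, where untreated 1 stands highest at 4232.7 and 3997.2, and NFKB2 211524_at lies under the filter level on all arrays.

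Promoter sequence is shown for 4 members, VCAM1 and TNFAIP6 because they were called with the block, and NFKBIA and TNFAIP3 because they encode the inhibitors. Each run is the 250 bases before the RefSeq start on the gene's strand, in build GRCh38.p14, and capitals mark matches to the 10-base κB consensus on either strand. VCAM1 lies at chr1:100719492-100719741 (+), TNFAIP6 at chr2:151357342-151357591 (+), NFKBIA at chr14:35404750-35404999 (-) and TNFAIP3 at chr6:137867009-137867258 (+).
VCAM1: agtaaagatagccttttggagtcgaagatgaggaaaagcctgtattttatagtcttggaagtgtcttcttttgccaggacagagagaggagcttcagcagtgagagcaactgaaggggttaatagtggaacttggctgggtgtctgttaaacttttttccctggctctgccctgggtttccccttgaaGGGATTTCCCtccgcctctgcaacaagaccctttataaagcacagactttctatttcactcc
TNFAIP6: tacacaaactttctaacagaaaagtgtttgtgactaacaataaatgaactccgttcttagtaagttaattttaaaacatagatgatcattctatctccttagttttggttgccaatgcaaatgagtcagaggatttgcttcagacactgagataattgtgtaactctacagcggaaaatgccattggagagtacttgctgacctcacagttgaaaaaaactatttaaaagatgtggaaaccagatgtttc
NFKBIA: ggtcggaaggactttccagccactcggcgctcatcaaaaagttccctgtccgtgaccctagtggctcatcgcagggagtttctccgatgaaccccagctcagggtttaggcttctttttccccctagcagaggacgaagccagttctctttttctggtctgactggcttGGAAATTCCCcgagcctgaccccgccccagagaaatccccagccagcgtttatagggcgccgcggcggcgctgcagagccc
TNFAIP3: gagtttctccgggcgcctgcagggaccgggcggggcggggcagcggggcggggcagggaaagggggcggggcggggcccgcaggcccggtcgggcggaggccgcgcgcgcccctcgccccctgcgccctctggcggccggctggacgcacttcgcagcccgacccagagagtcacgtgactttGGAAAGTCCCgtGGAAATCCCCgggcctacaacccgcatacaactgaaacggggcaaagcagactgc

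The table of promoters held 11 starts for 8 of the members, each with 250 bases before and 50 after the start. A κB match stood in 6 of these 11 promoters, which belong to 5 genes, beside 11.3% of all 35116 promoters of that length. VCAM1 had 1 match, beginning 62 bases before the start, which reads as a match on both strands. NFKBIA had 1, beginning 81 bases before the start, and TNFAIP3 had 2, at 67 and 55 bases before it. NFKB1 had 1 match at the first of its 2 starts, and NFKB2 had 0, 3 and 2 match positions at its 3 starts in order of coordinate, of which 2 overlap. These letters were not found in the windows of TNFAIP6, TNFAIP2 and ICAM1. A TATAAA on the gene's strand stood in the windows of VCAM1 and ICAM1, beside 7.33% of all promoters. A match is a description of the letters and shows no binding. Sites that depart from the consensus are missed, so a window without a match may still hold a κB site.

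DNA methyltransferases methylate cytosine in CG dinucleotides, so these were counted too. The 300-base windows of TNFAIP6 and VCAM1 held 2 and 5 of them, while the median of all promoters was 14. As few or fewer stood in 18.2% and 33.7% of all promoters. The other 6 genes had 20 to 35 in each of their windows. NFKBIA had 22, ICAM1 had 24, and TNFAIP2 and TNFAIP3 had 35 each. DNA methylation was not measured, and no relation between these counts and the expression values was tested.

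**Figure D2:**
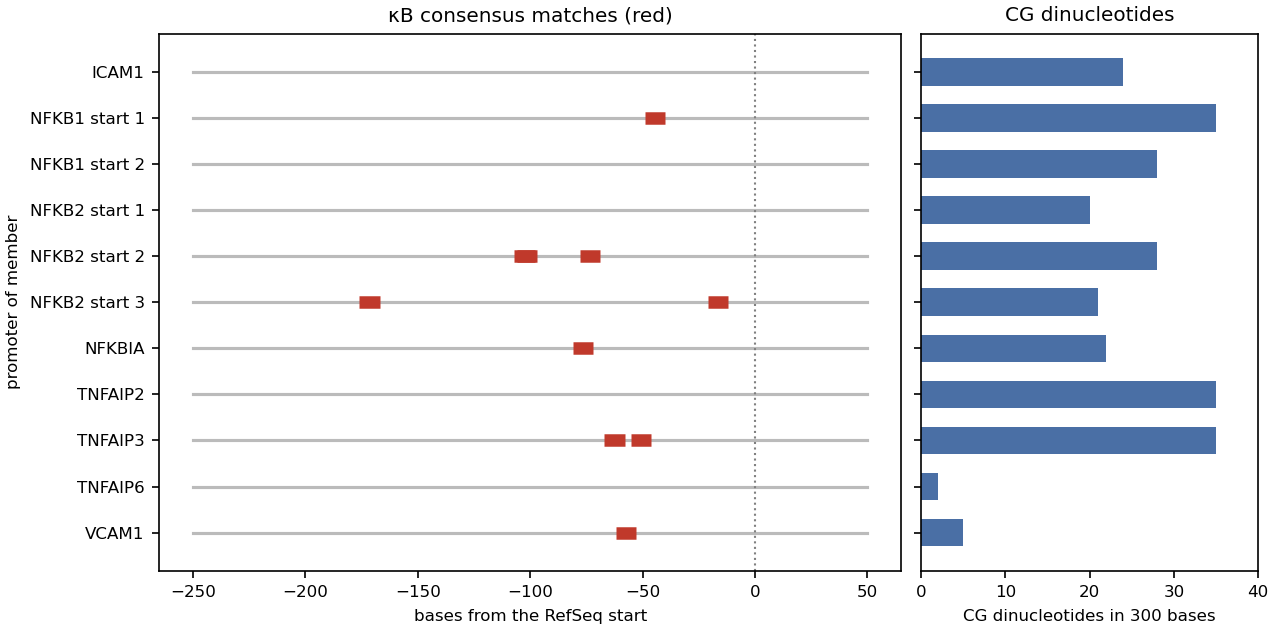
Left, position of κB consensus matches (red) in bases from the RefSeq start for the 11 promoters of 8 members; right, the number of CG dinucleotides in the same 300 bases. The windows of TNFAIP6 and VCAM1 hold 2 and 5 CG dinucleotides, those of the other members 20 to 35.

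NFKB1 encodes p105, the precursor of the p50 subunit that takes part in the classical pathway. Its signals were 490.2, 578.2 and 607.5 in untreated and 383.8, 456.8 and 491.1 in treated cultures of replicates 1, 2 and 3. The treated array was lower in each pair, by nearly the same amount (-0.34, -0.33 and -0.30), although treated 3 lay just above untreated 1, so the groups overlapped. The mean difference was -0.32 ± 0.25 (limma, adjusted p = 0.64). In the blocked fit its 95% interval ran from -0.81 to 0.16 (limma, adjusted p = 0.448).

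NFKB2 encodes p100, the precursor of the p52 subunit of the alternative pathway, and has 3 probe sets. The first, 207535_s_at, read 438.6, 285.5 and 261.1 in untreated and 281.9, 356.0 and 342.1 in treated cultures, so it was lower in pair 1 and higher in pairs 2 and 3. The second, 209636_at, read 148.1, 124.4 and 132.2 against 91.7, 188.7 and 149.4, with the same sign in each pair. Their mean differences were 0.02 ± 0.29 and 0.03 ± 0.38 (limma, adjusted p = 0.986 and 0.985), and the blocked 95% intervals were -0.57 to 0.61 and -0.77 to 0.83. The third, 211524_at, was not tested, with signals from 3.5 to 42.5 on all arrays. Both tested probe sets change sign when a replicate is left out: without replicate 3 the first was at -0.15, and without replicate 2 the second was at -0.22.

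RELB encodes the transcription-activating partner of p52, and its transcript is itself a target of the classical pathway. It read 199.4, 109.7 and 173.4 in untreated and 145.6, 107.0 and 107.5 in treated cultures. Each treated array was lower than its partner, with pair differences of -0.41, -0.03 and -0.62, and the groups overlapped. The difference was -0.35 ± 0.38 (limma, adjusted p = 0.747, or 0.609 when blocked).

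NFKBIA encodes I-kappaB alpha, the inhibitor that binds NF-kappaB in the cytoplasm and is made anew when the factor is active. Its signals were 547.9, 696.3 and 489.8 in untreated and 556.4, 758.4 and 1151.5 in treated cultures. Treated 3 stood above all other arrays, and the other 2 treated cultures lay close to their partners: the pair differences were 0.02, 0.12 and 1.21. The mean difference was 0.45 ± 0.30 (limma, adjusted p = 0.578, or 0.366 when blocked, 95% interval -0.13 to 1.03). Without both arrays of replicate 3 it was 0.07, and without zebularine 3 alone 0.18.

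TNFAIP3 encodes A20, an enzyme that edits ubiquitin chains and damps signalling to NF-kappaB. At 202644_s_at it read 187.1, 108.9 and 227.0 in untreated and 96.1, 224.6 and 464.1 in treated cultures, lower in pair 1 and higher in pairs 2 and 3, with treated to untreated signal ratios of 0.514, 2.06 and 2.04. The difference was 0.36 ± 0.48 (limma, adjusted p = 0.808, or 0.64 when blocked), and it was -0.16 without zebularine 3. The other probe set, 202643_s_at, read 12.2, 33.8 and 110.6 against 87.5, 71.1 and 158.9. It was higher in all 3 pairs, by 1.04 ± 0.66 on average (limma, adjusted p = 0.55, or 0.343 when blocked). It reached the filter level on 1 untreated and 2 treated arrays, so it passed the filter mainly through the treated group, and its difference depended on the pseudocount, at 1.44 with a pseudocount of 1 and 0.60 with 65.35. In pair 1 the 2 probe sets of this gene had differences of opposite sign, -0.86 and 1.86.

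The pair of replicate 3 also had the largest differences in interferon-induced transcripts. Over 16 tested interferon-induced genes the median difference was 0.47, 0.51 and 2.57 in pairs 1, 2 and 3, against differences of NFKBIA of 0.02, 0.12 and 1.21. Of these genes 0 were called without the block, beside 0.642% of all 7938 tested genes. There 10 had an unadjusted p under 0.05 in limma, beside 12.6% of all tested probe sets. With the block 6 were called, beside 4.45% of all tested genes. All 6 were higher: ISG15, IFIH1, IFIT1, IFI27, OAS2 and IFIT3. IFIT1 and OAS2 stood at 2.02 and 2.01 (blocked limma fit, adjusted p = 0.0315 and 0.0366). All 6 lost the call in the blocked fit without replicate 3, where IFIT1 and OAS2 were both at 1.06 (limma, adjusted p = 0.157 and 0.23). In the blocked fit without replicate 1 OAS2 alone of the 6 kept it (limma, adjusted p = 0.028). In the blocked fit without limma's trend 0 of the 6 were called (limma, adjusted p = 0.2 to 0.232). Without the filter only ISG15 and IFI27 kept the call in the blocked fit. There IFIH1, IFIT1, OAS2 and IFIT3 were not called (limma, adjusted p = 0.056, 0.0577, 0.0794 and 0.0871). In pairs 1, 2 and 3 TNFAIP3 differed by -0.86, 0.94 and 0.98 at 202644_s_at and by 1.86, 0.80 and 0.47 at 202643_s_at. The latter thus had its smallest difference in pair 3. The part of the interferon response in the values of NFKBIA and TNFAIP3 was not tested.

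TNFAIP6 encodes TSG-6, a secreted protein that binds hyaluronan and is induced by TNF and interleukin-1. At 206025_s_at its signals were 4232.7, 1109.2 and 1060.3 in untreated and 942.0, 489.9 and 781.8 in treated cultures. Untreated 1 stood far above the other arrays, and every treated array lay below every untreated one. The treated signal was 0.223, 0.442 and 0.737 of its partner in pairs 1, 2 and 3. The difference was -1.24 ± 0.46 without the block (limma, adjusted p = 0.278) and -1.24 ± 0.29 with it (limma, adjusted p = 0.0324, 95% interval -1.87 to -0.62).

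The other TNFAIP6 probe set, 206026_s_at, read 3997.2, 1064.1 and 1351.7 in untreated and 858.6, 465.1 and 1028.0 in treated cultures. The groups did not overlap here either, with the lowest untreated and the highest treated signal close together. The difference was -1.25 ± 0.29 with the block (limma, adjusted p = 0.0345, and 0.263 without it). Both probe sets read 1 gene in the same RNA, so they are not independent. The size rested on replicate 1: without untreated 1 the unblocked differences were -0.59 and -0.68 (limma, adjusted p = 0.619 and 0.59). In the blocked fit without replicate 1 they were -0.79 and -0.78 (limma, adjusted p = 0.261 and 0.267). Without replicate 3 they were -1.65 and -1.68. The call with the block also ended without limma's mean-variance trend (limma, adjusted p = 0.226 and 0.227).

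TNFAIP2, another gene named for its induction by TNF, has 2 probe sets that did not read alike. At 202510_s_at it read 1676.6, 929.9 and 2121.9 in untreated and 1094.5, 850.1 and 1165.9 in treated cultures, lower in each pair although the groups overlapped at untreated 2. The difference was -0.53 ± 0.31 (limma, adjusted p = 0.518, or 0.188 when blocked). At 202509_s_at it read 311.7, 91.8 and 224.9 against 136.5, 174.2 and 197.5. There it was lower in pairs 1 and 3 and higher in pair 2, at -0.15 ± 0.42 (limma, adjusted p = 0.912), and 0.32 without replicate 1.

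VCAM1 encodes a cell surface protein of the immunoglobulin family that binds the integrin α4β1 on leukocytes. Its signals were 1692.2, 998.9 and 2010.6 in untreated and 593.2, 500.4 and 1271.6 in treated cultures. Each treated culture was lower than its partner, at 0.351, 0.501 and 0.632 of its signal, but treated 3 lay above untreated 2, so the groups overlapped. The difference was -1.04 ± 0.36 without the block (limma, adjusted p = 0.26), and -1.04 ± 0.23 with it (limma, adjusted p = 0.0275, 95% interval -1.53 to -0.55). With the block it was -0.81 without replicate 1 (limma, adjusted p = 0.199), -1.07 without replicate 2 and -1.23 without replicate 3 (adjusted p = 0.0206 and 0.0156). Without limma's trend the adjusted p with the block was 0.186.

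ICAM1, the ligand of the leukocyte integrin LFA-1, has 3 probe sets and none was called. At 202638_s_at it read 1092.5, 497.8 and 715.6 in untreated and 583.6, 540.3 and 524.9 in treated cultures, lower in pairs 1 and 3 and slightly higher in pair 2. At 202637_s_at the signals were 874.5, 373.0 and 935.9 against 724.6, 795.3 and 602.1, with the same order of signs and a larger difference in pair 2. At 215485_s_at they were 280.8, 154.2 and 283.5 against 241.7, 177.5 and 81.6. The differences were -0.40 ± 0.30, 0.06 ± 0.34 and -0.54 ± 0.41 (limma, adjusted p = 0.618, 0.967 and 0.621). The blocked 95% intervals were -0.94 to 0.13, -0.59 to 0.71 and -1.33 to 0.24. At 202637_s_at the difference was -0.44 without replicate 2. The 3 probe sets agreed on the sign in each pair: negative in pairs 1 and 3, positive in pair 2. Whether VCAM1 and ICAM1 differed in their response was not tested.

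**Figure D3:**
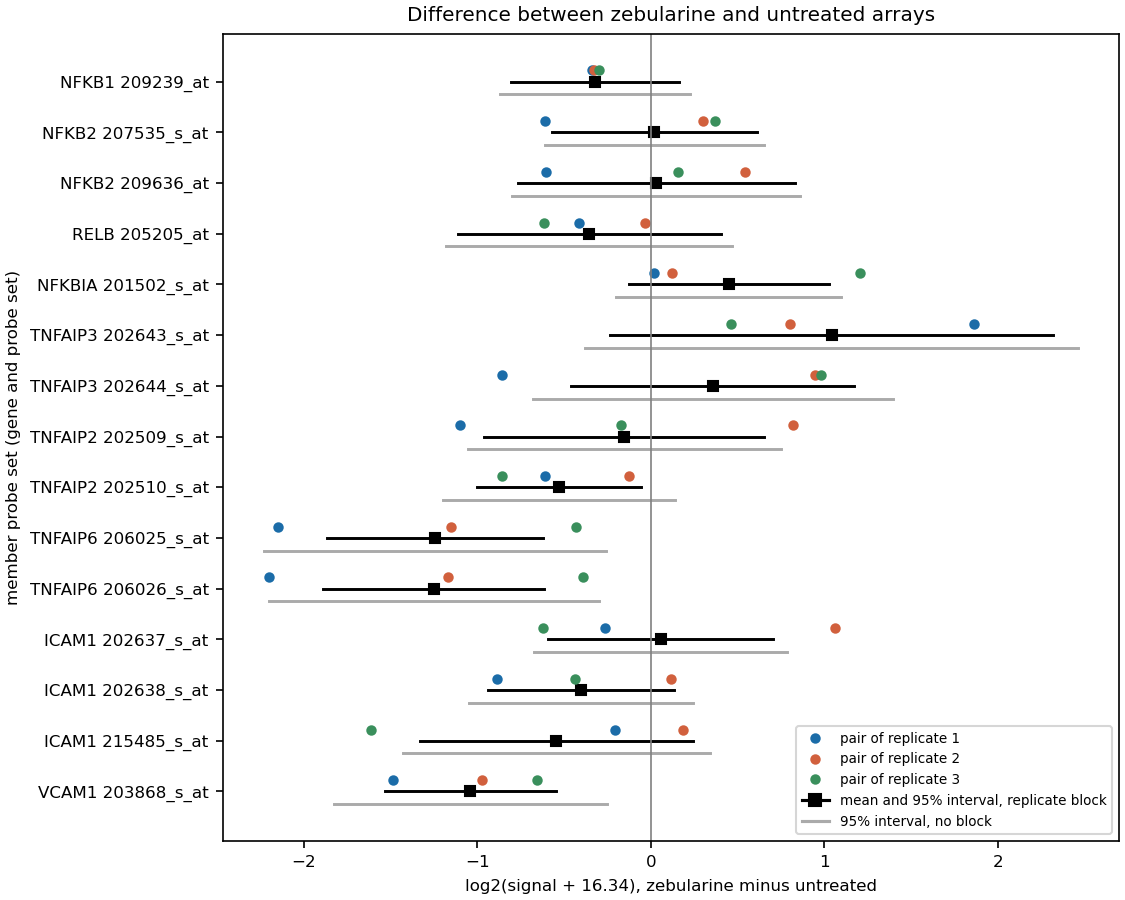
Difference in log2(signal + 16.34), zebularine minus untreated, for the 15 tested member probe sets: coloured points are the 3 pairs, squares the mean, black lines the 95% interval with the replicate block and grey lines that without it. The black intervals of VCAM1 (-1.53 to -0.55) and TNFAIP6 (-1.87 to -0.62 and -1.89 to -0.62) lie below 0, as does that of TNFAIP2 202510_s_at (upper end -0.06), which was not called after adjustment.

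Markers were read as a check of the label. Of 9 marker genes of renal epithelium and renal carcinoma on the array 7 reached the filter level on all 6 arrays, among them PAX8 at a mean of 1145 in untreated and 858 in treated cultures. The kidney cadherin gene CDH6 fell from 1400 to 162, by 2.85 on the log2 scale (limma, adjusted p = 0.0206, and 0.00397 in the blocked fit), more than any member. The other 7 tested renal markers were not called; the largest difference among them was that of KRT19, from 114 to 290 (blocked limma fit, adjusted p = 0.0591). Endothelial cells and leukocytes also carry several of the members. Of 7 endothelial and 9 leukocyte marker genes 0 reached the level on all arrays, and their summed signals were 300 to 426 and 399 to 623 in untreated against 263 to 374 and 509 to 672 in treated cultures. CDH5 and PTPRC, which define these cells, had means of 38.0 and 32.1 in untreated and 35.7 and 38.5 in treated cultures. Of 7 fibroblast markers 1, COL1A1, reached the filter level on all arrays, and their sum was 406 to 524 against 561 to 925. The mean of COL1A1 went from 197 to 398, and those of DCN, LUM, PDGFRB and THY1 rose by less. COL1A2 and COL3A1 fell, from 72.1 and 45.3 to 27.0 and 21.8, so the markers did not move together. Array medians ran from 118 to 141, and the highest signal was 27500 and 31176 on the arrays of replicate 3 against 58719 to 62832 on the other 4.

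The rest of the pathway was followed through lists of other genes, with 1 probe set a gene, the one of highest mean signal. Among 20 tested genes for the remaining NF-kappaB and I-kappaB proteins and their activating kinases 0 were called with or without the block (limma; 2 and 0 had an unadjusted p under 0.05). The differences were positive for 13 and negative for 7, with a median of 0.24, against -0.01 over all 7938 tested genes. Of all tested genes 0.642% were called without the block and 4.45% with it. RELA, the main activating subunit, had means of 492 and 368 and a difference of -0.23, and REL, its relative in lymphocytes, one of 0.01. The kinase genes CHUK and IKBKB, whose products mark I-kappaB for destruction, differed by 0.56 and 0.44 (limma, adjusted p = 0.416 and 0.524). The list's highest signals, RBCK1 and TANK, differed by -0.28 and 0.43. RELA, REL, CHUK and IKBKB were named for their roles after their values were seen.

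Among 20 tested receptors, ligands and adaptors upstream of NF-kappaB 1 was called with the block, higher, beside 4.45% of all tested genes. A count of 1 in 20 is near that share. Without the block 0 were called, beside 0.642%, and 1 had an unadjusted p under 0.05 in limma, beside 12.6% of all tested probe sets. The median was 0.03. The called gene was IL1B, the gene of interleukin-1 beta, which went from 27.5, 86.1 and 93.0 to 210.7, 244.5 and 255.3. It rose by 1.68 ± 0.39 with the block (limma, adjusted p = 0.0327, and 0.118 without it), with all treated signals above all untreated ones. The call ended without replicate 1 (limma, adjusted p = 0.159, at 1.33), without replicate 3 (adjusted p = 0.0622, at 1.86), without the filter (adjusted p = 0.0864) and without the trend (adjusted p = 0.157). TNF itself was not tested, with means of 31.1 and 31.3. The receptor adaptor kinase IRAK1 and the TWEAK receptor TNFRSF12A, the list's highest signals, differed by -0.09 and 0.01.

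Among 33 tested other genes known to be induced by NF-kappaB 3 were called with the block, all higher, beside 4.45% of all tested genes. Without it 0 were called, beside 0.642%, and 6 had an unadjusted p under 0.05 in limma, beside 12.6% of all tested probe sets. The differences were positive for 20 and negative for 13, with a median of 0.11. CXCL8, the neutrophil chemokine interleukin-8, went from 151.3, 43.2 and 82.8 to 214.0, 1021.2 and 1555.5. The difference was small in pair 1 and large in pairs 2 and 3, and it rose by 2.86 ± 0.55 on average (limma, adjusted p = 0.0154 with the block, and 0.0532 without it). IL6, the gene of interleukin-6, rose by 1.75 ± 0.36 (limma, adjusted p = 0.0211 with the block, and 0.205 without it), from 69.0, 138.9 and 133.8 to 163.9, 352.2 and 1112.2. TNC, the matrix protein tenascin-C, rose by 1.65 ± 0.32 (limma, adjusted p = 0.0166 with the block, and 0.0814 without it). IL6 was at 1.16 without replicate 3 (adjusted p = 0.189) and TNC at 1.19 without replicate 1 (adjusted p = 0.128). Without the trend CXCL8, IL6 and TNC had adjusted p = 0.202, 0.174 and 0.159 in limma with the block, and without the filter IL6 had 0.0537.

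With the block, genes of the induced list and members were called in opposite directions: CXCL8, IL6 and TNC higher and VCAM1 and TNFAIP6 lower. None of them was called without the block, or with it but without limma's trend. Control of these genes by NF-kappaB was not measured. In pair 2 CXCL8 differed by 4.12, VCAM1 by -0.97 and TNFAIP6 by -1.15, and in pair 3 by 3.99, -0.65 and -0.43. Pair 1 had the smallest difference of CXCL8, at 0.46, and the most negative ones of VCAM1 and TNFAIP6, at -1.49 and -2.15. The other 2 raised genes had other orders. TNC differed most in pair 1, at 2.57, 1.09 and 1.29 in pairs 1, 2 and 3, and IL6 most in pair 3, at 1.08, 1.25 and 2.91. Whether these genes differ in their order of pairs beyond the spread was not tested.

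Among 9 tested other adhesion receptors and selectins 0 were called with or without the block in limma. An unadjusted p under 0.05 was reached by 4 with the block. Without it 3 reached that level, beside 12.6% of all tested probe sets. The difference was positive for 8, and the median was 0.43. The list's highest signals were ITGB1, the β1 integrin that pairs with α4 to bind VCAM1, and ALCAM, at 0.30 and 0.02. NCAM1 and L1CAM, named after their values were seen, differed by 0.89 and 0.97 (blocked limma fit, adjusted p = 0.0633 and 0.0728). The endothelial selectin gene SELE was not tested, with means of 35.3 and 20.5.

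**Figure D4:**
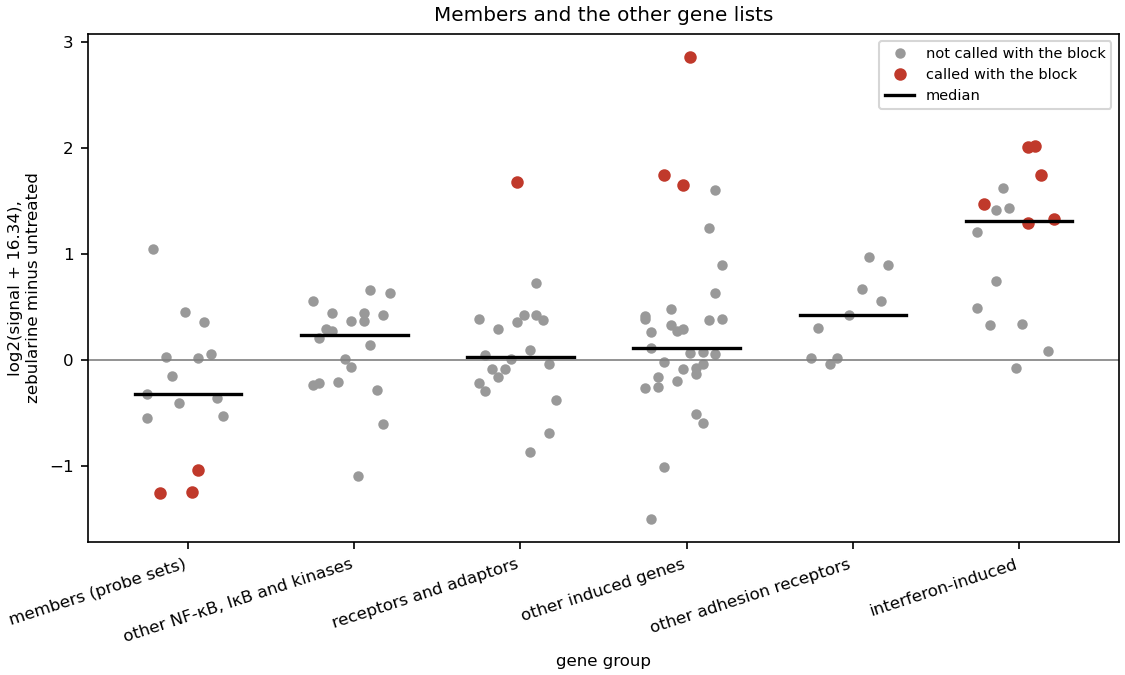
Difference in log2(signal + 16.34), zebularine minus untreated, for the 15 member probe sets and for the tested genes of 5 other lists; red points were called with the replicate block and black bars are medians. The red points are below 0 among the members and above 0 in the lists, and the medians are -0.32 for the members and 1.31 for the interferon-induced genes.

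Of the tested member probe sets TNFAIP6 206025_s_at had the widest range over the 6 arrays, 3.07 on the log2 scale. The genes most like it over the 6 arrays were SLC23A2, TM9SF4, RASAL1, ADD1 and SCAP, with Pearson's r of 0.989, 0.984, 0.983, 0.978 and 0.978 and Spearman's rho of 0.943 to 1.0. These were picked as the highest of all tested genes, so the values are a description. All 5 shared with TNFAIP6 the highest signal on untreated 1 and the lowest on zebularine 2. SLC23A2, a vitamin C transporter gene, read 246.0, 175.6 and 175.4 in untreated and 173.8, 155.9 and 170.4 in treated cultures, a far smaller range. Without these 2 arrays r was 0.747 to 0.991.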

How the data were processed

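The deposited intensities were made by the authors with MAS5, according to the tools listed for the submitters' processing; its version and settings are not known here. Each is 1 linear value for a probe set on an array, and dim values are noisy. Groups and replicate numbers came from the sample titles.

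Of 22277 probe sets 62 controls were left out. Values were taken as log2(signal + 16.34), adding an eighth of the overall median, which understates changes of dim genes. A probe set was tested at a signal of 78.6 or more on at least 3 of 6 arrays (13545 tested, 8670 not). The 2 groups were set against each other by limma 3.58.1 in R 4.3.3 (lmFit, eBayes with trend, two-sided), adjusted by Benjamini-Hochberg over all tested probe sets. The fits were also run on simulated arrays that shared no replicate effect, so that run did not test the blocked fit on paired arrays. Figures used matplotlib 3.10.9 in Python 3.11.15. Cultures of 1 line were compared, so p-values speak of the spread between those cultures, and 6 arrays limit the precision.

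For the pairing, each array's deviation from its group's mean was correlated with those of the other group: same-numbered arrays gave 0.32, 0.21 and 0.27, and all other combinations lay below 0. Deviations within a group sum to 0, so the values below 0 follow in part from the positive ones and add little to them. The labels also give both arrays of a number 1 experiment name.

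Probe sets were named where the platform annotation lists 1 symbol (19064). Promoters came from RefSeq (GRCh38.p14), matched by symbol for 8 of the 9 genes with a probe set. Members and lists were chosen with earlier results of these data known. By the naming rule the text names all members, up to 6 called genes of each list in each direction, the 2 of highest signal where fewer than 2 were called, and the 5 genes most like the member of widest range. Markers, untested genes and genes said to be named after their values were seen are the exceptions. The alternatives were other pseudocounts, no filter, other scalings, limma without its trend, the replicate block and leaving out arrays.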

Additional observations from a re-analysis of the deposited data

How the results depend on the processing

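There were 26 alternatives, but the block, the filter and the trend leave a difference on the same arrays unchanged. Only the pseudocounts, the scalings and the left-out arrays could change a sign. Over these alternatives 10 of the 15 tested member probe sets kept their sign, among them VCAM1, both of TNFAIP6, NFKBIA, NFKB1 and RELB. Those that did not were never called: NFKB2 207535_s_at (-0.15 to 0.34 when arrays or replicates were left out; -0.12 without replicate 2 and -0.15 without replicate 3 in the paired fit), NFKB2 209636_at (-0.22 to 0.35; -0.22 without replicate 2 and -0.032 without replicate 3 in the paired fit), TNFAIP3 202644_s_at (-0.16 to 0.96), TNFAIP2 202509_s_at (-0.64 to 0.32; 0.32 without replicate 1 in the paired fit) and ICAM1 202637_s_at (-0.44 to 0.40; -0.44 without replicate 2). The cause was not tested. Leaving out arrays removes samples, so groups overlap less by construction: 2 to 10 member probe sets then had none, the most without untreated 2.

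No alternative without the replicate block called a member probe set. With the block 3 were called, as they were with a pseudocount of 1 or 65.35, without the filter, after quantile normalization, after scaling to 1 median, and without replicate 2 or 3; 0 were called without replicate 1 or without the trend. The fits that combine the block with another choice were chosen after seeing the data. Over all probe sets 84 were called, and 0 to 96 when arrays or replicates were left out, 53 with a pseudocount of 1, 42 without the filter and 6 without the trend. With the block there were 572, and 194, 1023 and 335 without replicate 1, 2 and 3, 528 and 596 with the pseudocounts, 395 without the filter, 592 and 555 after quantile normalization and median scaling, and 2 without the trend.

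Of the upstream genes 1 was called with the block, also without replicate 2, without replicate 3 (there a gene other than IL1B), with either pseudocount and under both scalings; 0 were called without replicate 1, the filter or the trend. Limma called 0 to 2 of the induced genes when arrays or replicates were left out and 1 after median scaling. With the block it called 3, also with either pseudocount and either scaling, and 2, 5 and 2 without replicate 1, 2 and 3, 2 without the filter and 0 without the trend. Interferon-induced genes numbered 6 with the block, also with either pseudocount and either scaling, 1, 9 and 1 without replicate 1, 2 and 3, 2 without the filter and 0 without the trend. The 1 called without replicate 3 was none of those 6. Dim signals limit TNFAIP3 202643_s_at and NFKB2 211524_at most.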
